A study of Homo sapiens with 4 samples.

Results

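The sites described here are 1743 places inside exons of human protein-coding genes where full-length SOX2 gave a CUT&RUN peak and its isolated DNA-binding domain (SOX2-DBD) did not. They were taken from the 43607 rows of the deposited SOX2 peak list that lack its seventh column, which are the intervals not in the SOX2-DBD list, out of 58827 distinct intervals in both lists. An interval was kept when its centre lay in an exon of a protein-coding gene and more than 1 kb from every annotated transcript start (hg19, GENCODE release 44 lifted to build 37). The 1743 sites were 3.997% of these SOX2-only intervals (Wilson 95% interval 3.82 to 4.19). They fell into 302 in coding sequence, 1205 in untranslated sequence and 236 in exons of transcripts that carry no coding sequence.

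Both groups were BJ cells, an established line of human foreskin fibroblasts, that expressed a V5-tagged protein ectopically for 48 h. One group received full-length SOX2 and the other SOX2-DBD, and an antibody to the V5 tag was used for CUT&RUN in each. The labels gave 4 samples, 2 per group, and the lists belong to replicate 1 of each group. Replicate 2 was not analysed here. The labels do not say how the genes were delivered or expressed. The lists hold positions and signal but no depth, so the depth is unknown. No value has an error between replicates, and every interval below covers counting error over sites, sequence windows or motif matches only.

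SOX2 is a transcription factor of the HMG-box family, known for its role in pluripotent and neural stem cells. It binds a short AT-rich core in the minor groove and bends the DNA, and it can engage that core on nucleosomes. Exons differ from the introns around them in base composition, because coding sequence is richer in G and C than most of the genome, while the untranslated end of the last exon is often AT-rich.

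The sequences that follow show the SOX core at named sites, so that the places behind the counts can be seen. Each is 30 bases on the gene's own strand, 5′ to 3′, in hg19, with the core ACAATG or ACAAAG, or its reverse complement CATTGT or CTTTGT, in capitals. Of the sites named by signal, by number per gene or by gene list, 8 in coding sequence and 3 in untranslated sequence are printed. Only sites with the core within 100 bp of the centre could be printed. Among the strongest coding sites named below, those of SLC12A2, ANKIB1, ADAMTS18, XRCC4, KIAA0753 and AKAP9 held no core there. In all 8 coding cases the core lay inside the coding sequence itself.
SESN3, chr11:94923004-94923033, minus strand: ggaatatgtgccACAAAGactgaaaaatct
GXYLT1, chr12:42491355-42491384, minus strand: tatcgaccagatCATTGTatatatggaagc
VPS45, chr1:150082611-150082640, plus strand: acctcaggatatCATTGTgtttgtaattgg
ZNF292, chr6:87965026-87965055, plus strand: ctcagaaacattACAAAGatggaatttata
CHD2, chr15:93485042-93485071, plus strand: cctcttgcagttACAAAGaagatgatgact
CHD2, chr15:93534918-93534947, plus strand: tgcagagggatgACAAAGatgataaagaca
ARHGEF12, chr11:120291486-120291515, plus strand: tccagaaagatgACAATGgatttgggctga
MCTP1, chr5:94134812-94134841, minus strand: ccagctctttctCTTTGTtgtctggaactt
IQCH, chr15:67793226-67793255, plus strand: ctctttttaaaaCATTGTttattaagtgat
PCYOX1, chr2:70508154-70508183, plus strand: actagatgaataCATTGTggacagcatcct
GOLT1B, chr12:21670898-21670927, plus strand: aagtgtttctgtCATTGTtcaagtgtattt

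The core was held within 100 bp of the centre by 45.5% of the exonic sites (793 of 1743, 95% interval 43.2 to 47.8). Coding sites held it in 45.7% of cases (138 of 302, 40.2 to 51.3), untranslated sites in 45.3% (546 of 1205, 42.5 to 48.1) and sites in exons of transcripts without coding sequence in 46.2% (39.9 to 52.6). Intronic SOX2-only sites, counted over the same kind of 200-bp window, held it in 46.4% (10908 of 23501). The exonic share minus the intronic share was -0.92 percentage points (Newcombe 95% interval -3.33 to 1.51), and at equal GC content it was -0.84 (-3.25 to 1.58). An exonic and an intronic site thus held the core at shares that were not told apart at this number of sites. For motif shares, equal GC content means weighting over bands of GC (7 in all), so GC within a band was not matched.

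Elsewhere in the same exons the core was less frequent. Windows of 200 bp in the same exons that touched no SOX2 interval held it in 27.1% of cases (4634 of 17101 windows in 1180 exons), 18.4 points fewer than the site centres (15.98 to 20.83) and 16.1 points fewer at equal GC (13.7 to 18.6). For coding sites alone the gap at equal GC was 17.8 points (9.999 to 25.62), against 399 windows in 41 exons, which were the exons long enough to hold a window outside the intervals. Those windows were coding throughout. Centre windows of coding sites often reached beyond coding sequence, as the exons of these sites had a median length of 160.5 bp. For untranslated sites the gap at equal GC was 15.99 points (13.1 to 18.9). Each window was counted separately, so these intervals take no account of windows that share an exon. Windows 10 kb downstream, with a median GC of 39.5%, held the core in 26.5%. At equal GC this was 14.05 points fewer than the site centres (10.33 to 17.77). For exons of transcripts without coding sequence that gap was 9.41 points (-0.78 to 19.6), an interval that spans both signs. Of the exonic sites, 594 held the core once, 159 held it at 2 places, 36 at 3 and 4 at 4 or more, while 950 held none within 100 bp of the centre. In a window of 100 bp the share fell to 26.1%, and a longer form, CAA with A or T at both positions before it and A or T and then GG after it, was held by 13.3% of windows of 200 bp (intronic 11.98%).

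**Figure D1:**
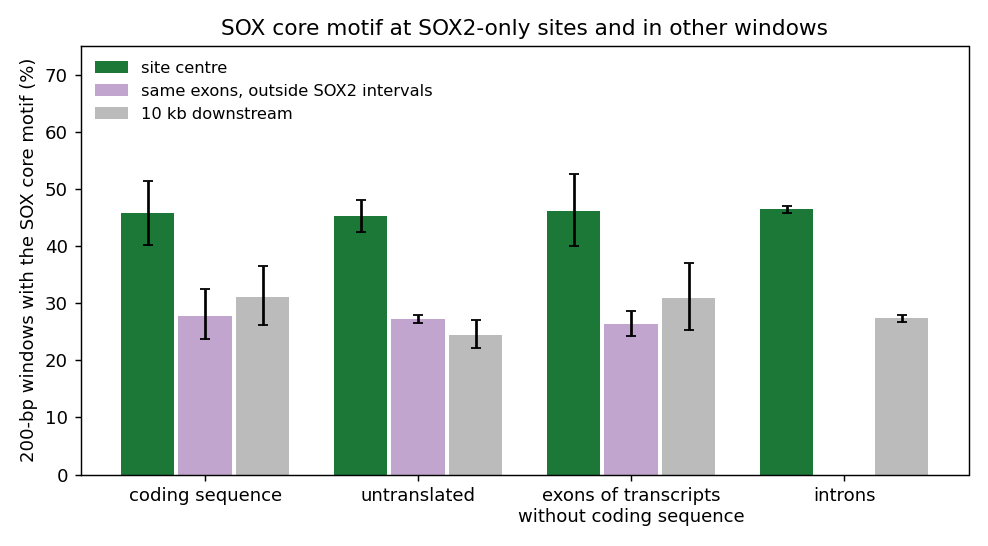
Share of 200-bp windows that held the SOX core (%, vertical axis) at site centres, in windows of the same exons outside SOX2 intervals, and 10 kb downstream, for each class of site; bars show the share and lines its Wilson 95% interval. The 3 exonic classes lie between 45.3% and 46.2% at the centres, beside 46.4% for introns, and the same exons lie between 26.3% and 27.8%.

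Inside the intervals of the 302 coding sites, the core occurred at least as often in the coding part as in the rest. It occurred 211 times in 68.3 kb of coding sequence, 3.09 per kb (SE 0.21, counting error). In the 119 kb of those intervals outside coding sequence it occurred 302 times, 2.54 per kb (SE 0.15). By the rule the centre of each interval lies in the coding part. Distance from the centre was not matched, so these values cannot tell coding sequence from position in the interval. When the core stood on the coding strand, its first base was the second base of a codon in 76 cases (57.6%), and in the rest of the same coding sequences this was so in 52.7%. The share on the strand opposite the gene was 47.8% at coding sites (40.5 to 55.1) and 63.8% at untranslated sites (60.2 to 67.2). The exons of the untranslated sites had 61.9% on that strand outside the intervals (60.6 to 63.3), and those of the coding sites 33.1% (25.7 to 41.5). The strand share at untranslated sites was therefore close to that of their exons, whereas at coding sites its interval overlapped that of the exons long enough to be counted by less than 1 percentage point. The coding comparison sets centre windows that often include intron beside windows that were coding throughout.

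Other short motifs set the exonic sites beside the introns too. The AP-1 site, TGACTCA or TGAGTCA, the element bound by FOS and JUN dimers that is widespread at fibroblast enhancers, was held by 5.91% of exonic SOX2-only sites (103 of 1743, 4.90 to 7.12), by 6.38% of intronic ones and by 2.70% of windows in the same exons. Exonic sites found in both lists, chosen by the same rule, held it in 17.9% (74 of 413, 14.5 to 21.9), an interval that does not overlap the former. Those shared intervals had a median width of 383 bp (range 1 to 1263), against 566 bp (range 162 to 2936). Their median window GC was 35%, against 33%. Width, signal and GC were not matched in this comparison. The forkhead motif TGTTTAC was held by 4.99% of the exonic SOX2-only sites (intronic 4.48%). The octamer ATGCAAAT, bound by POU factors, was held by 2.07% (intronic 2.75%). AACAATAG or AACAATGG, of which the latter contains the core, was held by 3.56% (intronic 3.40%). The hexamer AATAAA, which marks the ends of messenger RNAs, was held on either strand by 47.5% of the exonic sites and 47.0% of the intronic ones. Windows in the same exons held it in 37.6%. Their median GC was 36%, against 33% at the exonic sites, and GC was not matched for this motif. In all, 7 motifs were counted on both strands, and a match describes the letters of a window, not an occupied site.

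Where in the gene the sites lay differed strongly by class. Of the 1205 untranslated sites, 1192 lay in 3′ untranslated sequence, which is 68.4% of all exonic sites (66.2 to 70.5), and 13 in 5′ untranslated sequence. The 1 kb limit bears on this split directly: 2212 SOX2-only centres lay in exons at any distance, and 469 of them (21.2%) were within 1 kb of a transcript start and so are no members. The site nearest to a start among those kept was 1004 bp away and the nearest one left out 1000 bp. The 19 sites kept within 100 bp of the limit had a median total signal of 2785, and the 31 left out within 100 bp of it 2215.

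By the same rule 413 of 14300 shared intervals were exonic, 2.89% (2.63 to 3.18), below the 3.997% of SOX2-only intervals, with 15.98% of them in coding and 65.4% in 3′ untranslated sequence. In 5′ untranslated sequence lay 12 of the 413 shared exonic sites (2.91%, 1.67 to 5.01) and 13 of the 1743 SOX2-only ones (0.75%, 0.44 to 1.27). Which group the shared intervals' values were measured in is not stated in the sources used here. Of the 920 intervals only in the SOX2-DBD list, 11 were exonic (1.20%, 0.67 to 2.13), 3 of them coding.

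Against the amount of sequence available, 3′ untranslated exons were the densest class. Over 1 kb from transcript starts there were 36.8 Mb of 3′ untranslated bases, which held 32.4 sites per Mb (exact Poisson 95% interval 30.6 to 34.3). Introns held 21.5 per Mb (21.2 to 21.8), exons of transcripts without coding sequence 23.5 (20.6 to 26.8), 5′ untranslated bases 13.7 (7.27 to 23.3) and coding bases 13.3 (11.8 to 14.8, over 22.8 Mb). Sequence outside protein-coding genes held 10.5 per Mb. Exons together made up 2.47% of the determined bases of the genome and held 3.997% of the SOX2-only sites.

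Within each class, the sites lay in windows of low GC content. The median GC content of the 200-bp window was 35.5% at coding sites, 32.5% at 3′ untranslated sites and 33% at intronic sites, while all bases of these classes had window means of 48.9%, 41.9% and 40.9%. Windows of at least 50% GC make up 45.3% of coding bases (10.3 Mb), and 0 of the 302 coding sites were centred in one, which allows a share of up to 0.993%. They make up 23.9% of 3′ untranslated bases, again with 0 sites of 1192. In introns such windows held 0.035 sites per Mb. In the band of 30 to 35% GC, coding sequence held 58.5 sites per Mb (48.1 to 70.6), 3′ untranslated sequence 75.1 (68.7 to 82) and introns 55.3 (54.2 to 56.3). In the band of 40 to 45% GC the values were 11.7 (8.42 to 15.8), 12.6 (9.84 to 15.9) and 7.27 (6.90 to 7.65).

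**Figure D2:**
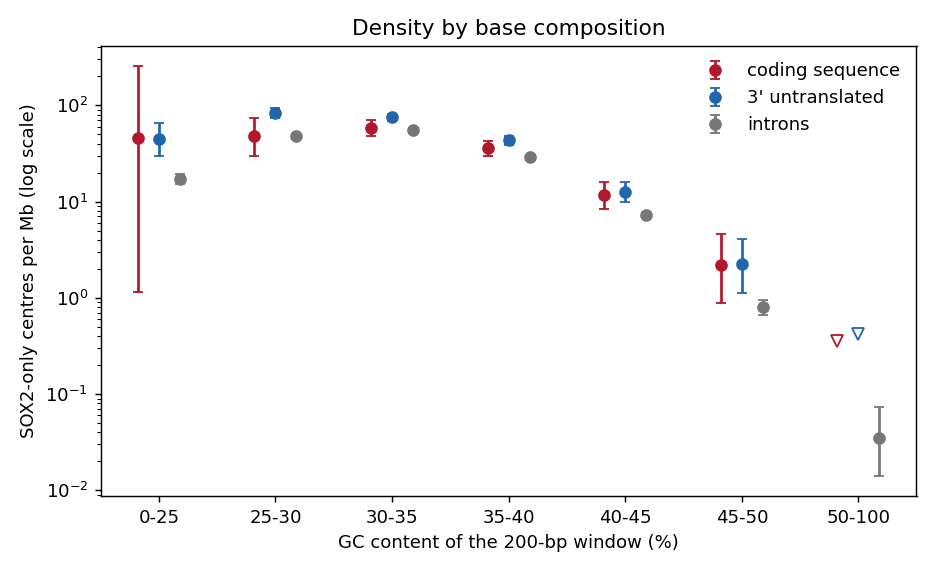
SOX2-only centres per Mb (vertical axis, log scale) by GC content of the 200-bp window (horizontal axis, %) for coding sequence, 3′ untranslated sequence and introns; lines are exact Poisson 95% intervals, and open triangles mark the upper limit of a class with 0 sites. The 3 classes lie between 55.3 and 75.1 sites per Mb in the band of 30 to 35% and introns reach 0.80 in the band of 45 to 50%, and the 3′ untranslated points lie above the intronic ones in the 6 bands where both have sites.

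At equal GC content the order of coding sequence and intron depended on how GC was measured. Coding sequence held 0.62 times as many sites as its length would give at the intronic density (0.55 to 0.69). When every percent of GC in the 200-bp window was given its own intronic density, the ratio was 1.22 (1.08 to 1.36, 302 sites against 248.7). With GC taken over 600 bp, about the width of an interval, it was 0.90 (0.80 to 1.01), so no direction is given for coding sequence. The 3′ untranslated ratio was 1.51 (1.42 to 1.60) with the 200-bp window and 1.45 (1.37 to 1.54) with 600 bp. Exons of transcripts without coding sequence stood at 1.28 (1.12 to 1.46) and 1.27 (1.11 to 1.44).

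Around transcript ends, the density of SOX2-only centres was highest in the last 1 kb of the transcript. The centres were not split by class in this profile, so a rise of 3′ untranslated density toward the end was not tested. Around the ends of 14038 canonical transcripts of at least 10 kb, the last 1 kb inside the gene held 36.9 SOX2-only centres per Mb (33.6 to 40.4) at a GC content of 42.3%. The 1 kb before it held 22.8 (20.2 to 25.7) at 44.2% GC, and the first 1 kb beyond the end held 17.8 (15.6 to 20.4) at 44.4%. Density was lowest from 1 to 2 kb beyond the end, at 13.04 (11.1 to 15.3), and it stood at 17.5 (15.2 to 20.2) from 10 to 9 kb before the end. GC content was lowest in the same last 1 kb that held the most sites, and its part in the peak was not tested in this profile.

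**Figure D3:**
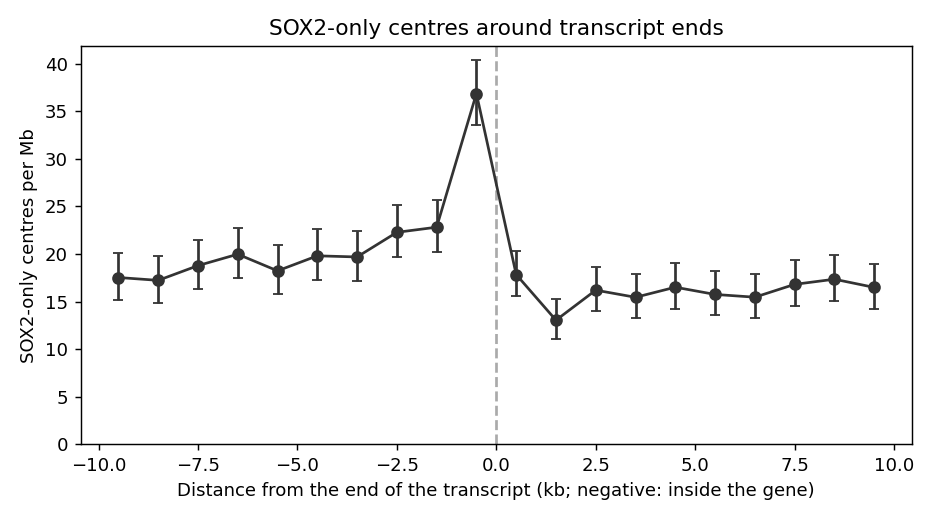
SOX2-only centres per Mb (vertical axis) in bins of 1 kb around the ends of canonical transcripts (horizontal axis, kb, negative inside the gene); points are bin values over 14038 transcripts and lines exact Poisson 95% intervals. The last 1 kb of the transcript stands at 36.9 per Mb, and the other 19 bins lie between 13.04 and 22.82.

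Individual 3′ untranslated sites mostly lay inside long last exons, and by length they were spread much as 3′ untranslated bases are. Stretches of 3000 bp or more held 56.04% of the 3′ untranslated sites and 53.96% of the bases. Stretches of 1000 to 3000 bp held 34.82% and 33.35%. The exon had a median length of 3446 bp over the 1205 untranslated sites, 874 intervals (72.5%) lay wholly inside it, and 98.0% of these sites were in the last exon of their transcript. The centre of the region of highest signal was in an exon in 95.7%. The 3′ untranslated centres lay a median of 1500 bp of genome past the stop codon and 1209.5 bp before the transcript end. The exon belonged to the canonical transcript of the gene in 85.15% of untranslated sites, and only to other transcripts in the rest.

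Coding sites had another geometry. Their exon had a median length of 160.5 bp and was shorter than the interval in 222 of 302 cases (73.5%, 68.3 to 78.2). The median interval had 28.4% of its length in coding sequence, 41 intervals (13.6%) lay wholly inside their exon and 32 (10.6%) wholly inside coding sequence. The centre of the region of highest signal lay in coding sequence in 150 of 302 (49.7%, 44.1 to 55.3). Most of these coding sites were thus wide intervals that spanned a short exon together with its flanking introns. Of all 1743 intervals, 17 had an end within 5 bp of an exon end and 0 had both ends there, which allows a share of up to 0.172%.

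The 236 sites in exons of transcripts without coding sequence resembled the untranslated ones more than the coding ones in shape. Their exon had a median length of 1886.5 bp, and 147 intervals (62.3%) lay wholly inside it. In 214 (90.7%) the centre of the region of highest signal was in an exon. They were in the last exon of the transcript in 64.8% of cases and in the first in 19.1%. They lay nearer to a transcript start, at a median of 3476 bp, than coding sites (7412.5 bp) and untranslated sites (6967 bp).

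**Figure D4:**
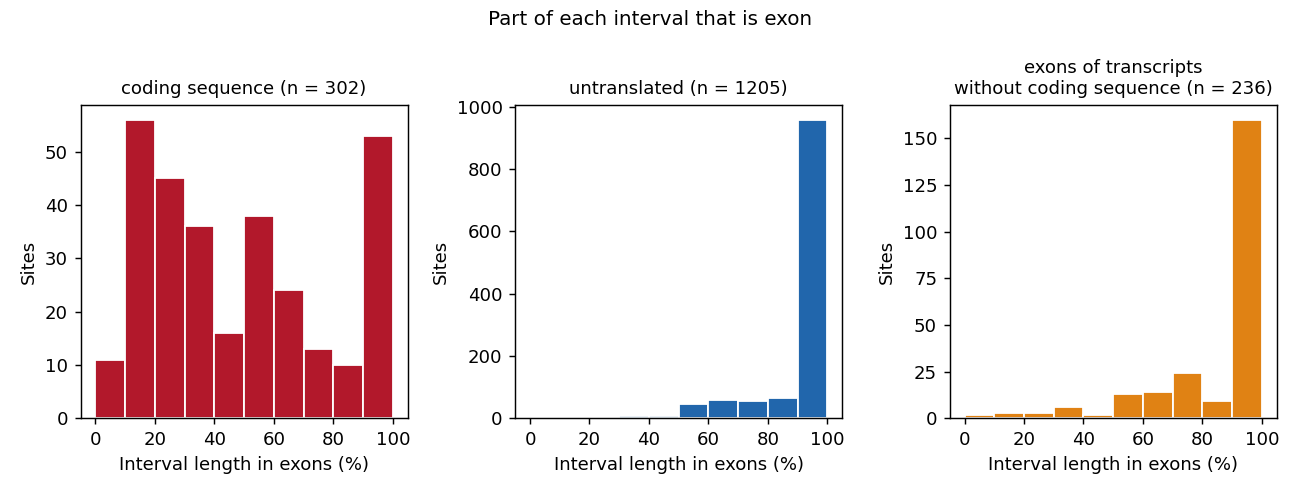
Percentage of each interval's length that lies in exons of protein-coding genes (horizontal axis) against the number of sites (vertical axis), for the 302 coding, 1205 untranslated and 236 other exonic sites. Coding sites spread over the whole range with a median of 41.6%, whereas the median is 100% in both other classes.

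Density in coding sequence had no single direction with exon length. It was 21.2 per Mb (16.3 to 27.0) in coding stretches under 100 bp, 15.4 (11.8 to 19.6) from 150 to 200 bp and 4.65 (2.40 to 8.13) from 400 to 1000 bp, then 17.0 (10.4 to 26.3, 20 sites) in stretches of 3000 bp or more. The 32 intervals wholly inside coding sequence lay in exons of 894 to 21022 bp. The strongest was in AKAP9, a scaffold that tethers protein kinase A at the centrosome and Golgi, where 1419 bp of signal (total signal 6062) lay in exon 8, of 2388 bp. ANKRD12 followed with 5859 in a 4721-bp exon and ZNF292, a zinc-finger gene, with 4871 in a last exon of 11294 bp. CCDC168 held 3 such intervals (4526, 3070 and 2134) in 1 exon of 21022 bp, and ASPM, a spindle-pole protein, held 2 (2657 and 1364) in exon 18. These genes other than AKAP9 and ZNF292 were chosen after their values were seen.

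Signal and width did not set exonic sites apart from intronic ones. The total signal, a sum over the interval in the authors' units, had a median of 2269 over the exonic sites (quartiles 1688.5 and 3278, range 1184 to 13978), of 2275 in coding, 2285 in untranslated and 2218 in the other exons, against 2299 in introns. The median width was 566 bp (441 to 751) over the exonic sites, 557 bp in coding and 578 bp in untranslated sequence, against 560 bp in introns. Exonic sites were between 3.45% and 4.29% of the SOX2-only intervals in each of 10 equal bins of signal. The highest exonic value, 13978, lay below the intronic maximum of 17240.

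**Figure D5:**
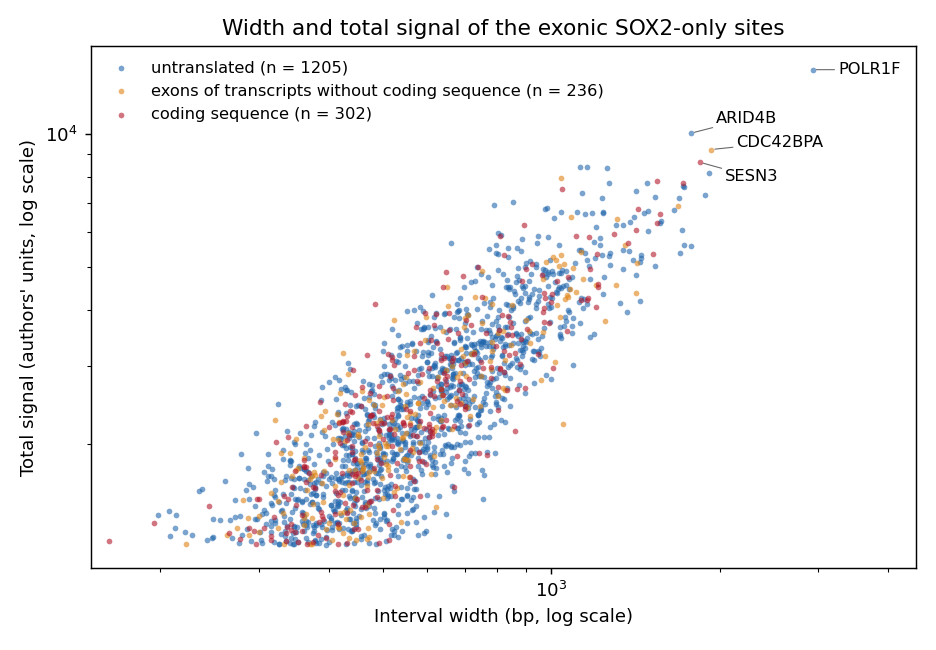
Total signal (authors' units, log scale) against interval width (bp, log scale) for each of the 1743 exonic SOX2-only sites, coloured by class. The classes overlap along 1 band, and POLR1F, at 2936 bp and 13978, stands at its upper end.

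The list that the deposit names as down-sampled gave a second set of SOX2 positions without signal. It overlapped 1147 of the 1743 exonic sites by at least 1 bp (65.8%, 63.5 to 68), with 62.6% of coding and 66.6% of untranslated sites. Intronic sites were found in it in 64.3% of cases, so that exonic sites exceeded them by 1.52 points (-0.82 to 3.798), an interval that includes 0. With at least 50% of the interval covered the exonic share was 56.1%.

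The strongest coding sites lay in genes of varied function. SESN3, which encodes a stress-induced sestrin that restrains mTORC1, led with a total signal of 8636 over 1845 bp, 9.92% of it coding, at exon 4 of 10 (chr11:94922059-94923903). It was followed by GXYLT1, which extends the O-glucose of Notch with xylose, at 7829. VPS45, a vesicle-fusion protein of the endosome, had 7742. SLC12A2, the cotransporter of sodium, potassium and chloride, had 7513 over 1044 bp at its 109-bp exon 7. Next came ANKIB1 (6790), the secreted metalloprotease gene ADAMTS18 (6611), the end-joining factor XRCC4 (6296), the ciliary gene KIAA0753 (6228) and AKAP9 (6062). AKAP9 was the only one of these 9 whose interval lay wholly inside coding sequence; in the other 8 the coding part was between 6.77% (ADAMTS18) and 19.2% (GXYLT1). The sites of GXYLT1 and ANKIB1 had no overlap in the down-sampled list, and the other 7 did.

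The 10 strongest untranslated sites were all in 3′ untranslated sequence. POLR1F, which encodes a subunit of RNA polymerase I, had the highest total signal of all exonic sites, 13978, over an interval of 2936 bp that also crossed the stop codon region (13.9% coding, chr7:19736419-19739354). ARID4B, a partner of the SIN3 histone deacetylase complex, had 10047 over 1778 bp. SNRPB2, of the U2 spliceosomal particle, had 8444 and CREM, a transcription factor of the cAMP response, 8427. The rest were FBXO25 (8367), the ceramide synthase gene CERS6 (8152), IQCH (7763), the prenylcysteine oxidase gene PCYOX1 (7751), the kinase gene MAP3K2 (7652) and the Golgi gene GOLT1B (7580). In SNRPB2, CREM, FBXO25, CERS6 and MAP3K2 the interval lay entirely in exon. ARID4B, SNRPB2, FBXO25 and GOLT1B had no overlap in the down-sampled list, and the other 6 did.

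The 13 sites in 5′ untranslated sequence were led by the receptor genes GPR22 (5984) and ADGRL2 (5350), followed by AKAP5 (4365) and FAM200B (4360). The lowest was SLC38A9, a lysosomal amino acid transporter, at 1242. NFE2L2, the oxidative-stress transcription factor, had 1911 in a 205-bp exon. Of the 236 sites in exons of transcripts without coding sequence, CDC42BPA, a kinase that acts downstream of CDC42, had the highest total signal at 9229, and TYW5 had 7939. These genes were chosen after their values were seen.

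The 1743 sites lay in 1460 genes, 7.24% of the protein-coding genes annotated. Of these, 1218 held 1 site, 203 held 2, 37 held 3 and 2 held 4. Introns of 1065 of the genes (73.0%) also held SOX2-only intervals, and 701 genes (48.0%) held an interval found in both lists. The same shares over all protein-coding genes were not counted, so neither value sets these genes apart. MCTP1, a calcium-binding membrane protein, held 4 sites with a summed total signal of 12653: one in its 120-bp exon 18 and 3 in 3′ untranslated sequence. CHD2, a chromatin remodeller, held 4 sites with 9802 in sum, 2 of them coding. Further genes named by number held 3 sites each. They were the phospholipase gene PLCB1, the receptor gene PLA2R1, the exchange factor gene ARHGEF12, the cytoskeletal linker DST, the kinase anchor AKAP5, NBEAL1 and the ubiquitin ligase gene ITCH, with sums from 12513 (PLCB1) down to 10111 (ITCH). PLCB1 and DST also held 29 and 30 SOX2-only intervals in introns, while AKAP5 held 0.

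Sites of 1 gene could lie in exons of very different length. ARHGEF12 held coding sites at exon 5 (99 bp, total signal 3563) and exon 32 (76 bp, 5000), with 14.5% and 10.3% of the intervals in coding sequence. DST held a coding site wholly inside its 5508-bp exon 40 (2073), a 3′ untranslated site of a shorter isoform (3486) and a site in an exon of a transcript without coding sequence (5622). NBEAL1 held 2 sites in its 7942-bp last exon (4679 and 4194), and AKAP5 held a coding (4656) and a 3′ untranslated (2073) site in its 6372-bp last exon. The CHD2 sites had total signals of 3943 at the 134-bp exon 8, 2709 and 1541 in 3′ untranslated sequence, and 1609 at a 67-bp exon.

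Gene families with distinctive exons held few of the sites, and their densities are given beside the 24.1 sites per Mb of exon over all protein-coding genes (23 to 25.3). C2H2 zinc-finger genes, whose long last exons encode DNA-binding fingers, held 37 sites in 34 of 568 genes, 14.4 per Mb (10.1 to 19.9). The strongest were ZNF451 (7159, 3′ untranslated), ZNF430 (4976, 3′ untranslated) and ZNF292 (4871, coding). Olfactory receptor genes held 2 sites in 415 genes, OR10A6 (2556) and OR6B1 (1566), 3.31 per Mb (0.40 to 11.98). Protocadherin genes, known for large coding exons, held 0 sites in 66 genes and 0.317 Mb, which allows up to 11.6 per Mb. The 29 giant structural and motor genes held 9 sites in 5 genes, 14.6 per Mb (6.69 to 27.8), 6 of them coding, among them DST (5622 and 3486) and DNAH7 (3386).

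Lists of fibroblast matrix genes and of genes of SOX2 biology hold little exon sequence. Their counts were small, and their densities were not told apart from that of all genes. Collagen genes held 4 sites, all untranslated, 13.8 per Mb (3.77 to 35.4), with COL4A1 at 4829, COL5A2 at 4470 and COL4A3 at 2160; the COL4A1 site lay at the 909-bp end of a shorter isoform. Of 16 fibroblast matrix and identity genes, DCN, the proteoglycan decorin, held 1 site in its 3′ untranslated sequence (1434). FN1, fibronectin, held 1 in coding exon 42 (1186), within 2 units of the lowest signal of any exonic site. The density of that list was 27.9 per Mb (3.38 to 100.7). Among 19 SOX genes only SOX6 held a site (1279, 3′ untranslated), 14.7 per Mb (0.37 to 81.7). The 13 pluripotency genes held 0 in 0.0426 Mb of exon, which allows up to 86.6 per Mb. Histone genes held 2 sites, H3-3A (1504) and H2BC26 (1352), 53.6 per Mb (6.50 to 193.8). The intervals of the zinc-finger, olfactory receptor and protocadherin lists ended below 23 per Mb, and those of the other 6 lists included the value of all genes. The GC content of the lists was not matched, and its part in these values was not tested.

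Exonic density differed widely between chromosomes. Exons of chromosome 2 held the most sites per Mb, 37.9 (32.9 to 43.4, 207 sites; introns 25.6). Exons of the gene-dense and GC-rich chromosomes 19 and 22 held 3.99 (2.18 to 6.70, 14 sites; introns 4.86) and 5.86 (2.53 to 11.5, 8 sites; introns 13.1), and chromosome 19 had 0 coding sites in 1.43 Mb. Exons of the X chromosome held 7.66 (4.74 to 11.7, 21 sites), above the 3.90 of its introns. Nearly all sites had a centre that occurs once in the genome by its 31-base word: 97.7% of coding and 98.0% of 3′ untranslated sites, against 96.5% of intronic ones. Of the 7 exceptions in coding sequence, those with the most copies were PPP4R2 (total signal 2765, 7 copies of the word), SMG1 (2235, 5 copies) and CTAGE6 (1502, 5 copies), genes chosen after their values were seen, whose place is uncertain for that reason.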

How the data were processed

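The data were CUT&RUN peak lists of replicate 1 for V5-tagged SOX2 and SOX2-DBD. The deposited signal values are a total and a maximum per interval; their normalization, the threshold, pooling of replicates and depth are not given in the sources used here. Per the submitters' processing notes, Bowtie2 2.3.4.1, SAMtools, bedtools 2.27.1, SEACR 1.3, deepTools 3.5.0 and hg19 were named, without roles. The seventh column of the deposited SOX2 list, present only in rows also in the SOX2-DBD list, has an unstated unit, and the down-sampled list gives positions without signal. Exact duplicate rows (1654) were counted once. Centres were classed by coding sequence, then untranslated sequence, then exons without coding sequence. Densities used determined bases of the same class, with GC from windows on a 20-bp grid. Wilson, Newcombe and exact Poisson 95% intervals cover counting error over sites, windows or motif matches, which are not replicates. Intervals of motif gaps at equal GC content use a normal approximation. No p-value is given. The genes named were the 10 highest coding and 10 highest untranslated sites by total signal, the 10 first genes with 3 or more sites, and up to 3 per gene list; others are marked where they stand. Some items that this rule selects are left out of the text. The members and lists were chosen with earlier results of these data known. The code was tested on simulated data. Versions were samtools 1.23.1, matplotlib 3.10.9 for figures, numba 0.67.0 for word counts, pyfaidx 0.9.0.4 for sequence, and scipy 1.17.1, pandas 2.3.3 and numpy 2.4.6 under python 3.11.15.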

Additional observations from a re-analysis of the deposited data

How the results depend on the processing

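No paired analysis was possible because 1 list per group, of replicate 1, was analysed, and for the same reason no replicate could be left out. Beyond 5 kb from every transcript start, 1044 exonic sites remained, at 28.56 per Mb. In the upper 50% of SOX2-only intervals by total signal there were 869 exonic sites at 12.32 per Mb, with a median width of 746 bp and a median signal of 3283, as that choice keeps fewer and stronger intervals. The share with the SOX core was 26.05% in a 100-bp window and 13.25% for the longer motif. Overlap with the down-sampled positions was 56.11% with at least 50% of the interval covered. The coding count over that at the intronic density of equal GC went from 1.215 to 0.8988 with a 600-bp window, an alternative chosen after seeing the data; the cause was not tested. In single-copy bases, also added then, it was 1.204, and the 3′ untranslated ratio was 1.451 and 1.509 under these alternatives. These and further alternatives (narrower exon definitions, the centre of maximum signal, exon coverage, kept duplicates) left 34 values within their intervals or, for counts, within 1.5 times. The unknown depth limits every count of sites.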
